A study of Mus musculus with 16 samples.

Results

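The comparison set lung endothelial cells of mice after resection of a primary tumour (d22) against those of mice that still carried it (d15). Members were all cells whose names in the deposited table began with the d15 or d22 prefix, 1507 cells at d15 and 3230 at d22, or 4737 of the 9036 cells of the series. Female C57BL/6N mice had cells of the Lewis lung carcinoma (LLC) line, derived from a mouse lung tumour, implanted under the skin before either of these days. At d15 the primary tumour was in place, and at d22 it had been removed. The d22 group therefore carries the history of a tumour as well as surgery, and no group with surgery alone was analysed here. Untreated wild-type mice (d0, 2671 cells) and mice with metastases (d36, 1628 cells) are given only as levels beside the comparison. Endothelial cells were sorted by flow cytometry; the sources used here give neither the gate nor the number of animals. The labels list 4 libraries a day, but cell names give the day only, so each day was 1 pooled sample.

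The endothelium lines all vessels and is in direct contact with circulating cytokines and leukocytes. Capillary endothelium of the lung holds general capillary cells and aerocytes, the thin cells that cover the surface of gas exchange. Endothelial cells present peptides on MHC class I molecules as all nucleated cells do, and in the lung many also carry MHC class II, which presents antigen to CD4+ T cells and is raised by interferon gamma through Ciita. Interleukin 6 family cytokines act on them through Stat3. Blood flow maintains the transcription factor Klf2, and Notch ligands and receptors pass signals between neighbouring cells.

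After removal of 3 cells at d15 on quality and of 14 and 37 non-endothelial cells, 1490 endothelial cells remained at d15 and 3193 at d22. They held 6920858 and 27653921 unique molecular identifiers (UMIs, each 1 counted transcript). Depth differed between the days: the median cell held 4172 UMIs and 834.5 genes at d15 against 7667 UMIs and 1335 genes at d22. The other days split the same way, with a median of 7653.5 UMIs at d0 and 3409 at d36. The 10 pan-endothelial markers summed to 17896 CPM (counts scaled to a day total of 1000000 UMIs) at d15 and 16617 at d22, with Cldn5 at 5671 and 5812. Markers of other cell types were low among these cells, in part because clusters and cells rich in the same markers had been removed. Macrophage markers summed to 13.9 CPM at d15 and 20.6 at d22, pan-leukocyte markers to 1.30 and 3.40, T and NK cell markers to 0.144 and 0.362, and fibroblast markers to 3.03 and 10.3. Epithelial markers summed to 103 and 189 CPM and erythroid and platelet markers to 40.5 and 20.3. Over all cells, without that removal, the sums at d15 and d22 were 581 and 495 CPM for epithelial markers. They were 539 and 86.3 for erythroid and platelet markers and 35.2 and 59.7 for macrophage markers. The 2 days shared 6 cell barcodes. Doublets were not called, and 34 cells at d15 and 47 at d22 held more than 3 times the day's median UMIs.

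With 1 pooled sample a day there was no test of the difference between days. Genes were read by size: a gene was measured with at least 50 CPM at either day and 200 UMIs over both, and called with a CPM ratio of at least 1.5 whose exact binomial 95% interval excluded 1. Intervals cover counting error only and are too narrow where few cells hold the UMIs. Of 3693 measured genes, 65 were higher at d22 than at d15 (1.76%) and 206 were lower (5.58%). Of these, 26 of the 65 and 91 of the 206 reached 50 CPM only on the day where they were high, so the filter admitted them through their difference. At a ratio of at least 2 there were 11 higher and 66 lower genes. The shares of 1.76% and 5.58% are the background for the list counts below. Of the 206 lower genes, 13 were ribosomal protein genes or their pseudogenes and 28 were predicted, accession-named or similar genes, against 0 and 2 of the 65 higher genes. The median log2 ratio over all measured genes was 0.0015. Scaling by the trimmed mean of M values moved that median to 0.08 and the counts to 101 higher and 162 lower, so that higher genes were 38.4% of the calls in place of 24.0%.

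The calls followed the split in depth between the days. For 55 of the 65 higher genes (84.6%), d0 and d22 both lay above d15 and d36, and for 187 of the 206 lower genes (90.8%) both lay below. Among all measured genes with a ratio over 1 the first order held for 61.6%, and among those under 1 the second held for 55.3%. Depth and the day cannot be told apart in these orders, so the calls were repeated at matched depth. For this, every cell was thinned to 2500 UMIs, which left out 453 d15 cells (30.4%) and 0 d22 cells, or only cells of 3000 to 6000 UMIs were used (523 at d15 and 772 at d22, with medians of 4631 and 4557.5 UMIs).

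**Figure D1:**
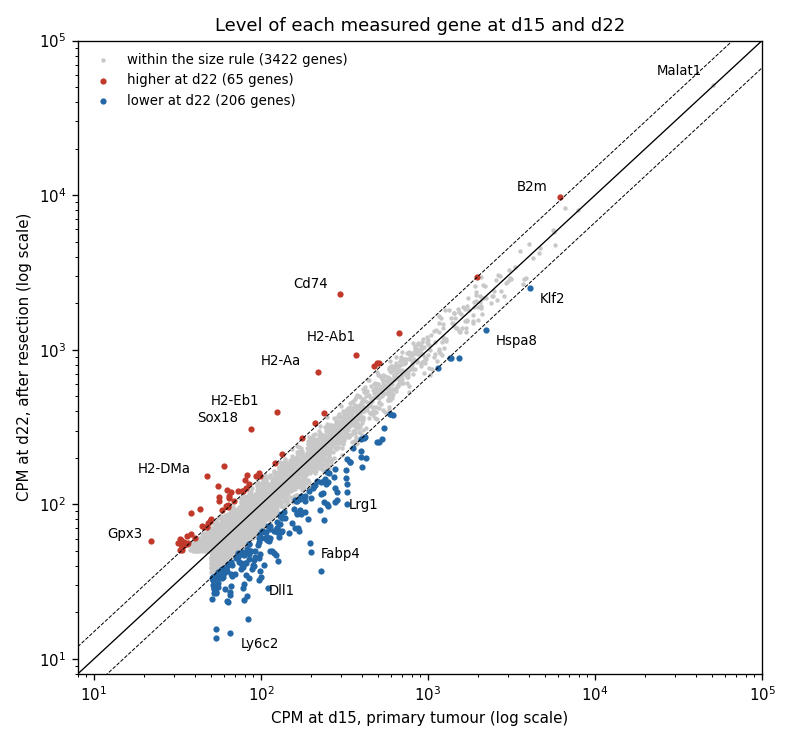
Level of each measured gene over endothelial cells at d15 (x axis, CPM, log scale) and d22 (y axis, CPM, log scale), 1 pooled sample a day; the solid line marks equal levels and the dashed lines a ratio of 1.5 either way. Cd74 at 295 and 2286 CPM stands farthest above the line, and Klf2 and Hspa8 are the most abundant of the 206 lower genes.

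MHC class II was the gene group with the highest ratios. Of the 11 listed genes 6 were measured, all 6 were higher at d22, and their median log2 ratio was 1.68. H2-DMa passed the level filter only through d22, where it was high. Cd74 encodes the invariant chain that accompanies class II molecules to the peptide-loading compartment. It lay at 994, 295, 2286 and 524 CPM on d0, d15, d22 and d36, a ratio d22 over d15 of 7.74, 95% interval 7.40 to 8.09. H2-Aa and H2-Ab1 encode the chains of the I-A molecule. H2-Aa lay at 375, 219, 717 and 284 CPM on d0, d15, d22 and d36 (ratio d22 over d15 of 3.27, 95% interval 3.11 to 3.45). H2-Ab1 lay at 505, 373, 929 and 475 CPM on d0, d15, d22 and d36 (ratio d22 over d15 of 2.49, 95% interval 2.39 to 2.60). Each of these 3 genes was lowest at d15 and highest at d22, above the wild-type level. H2-Eb1, the I-E beta chain, lay at 199, 125, 398 and 159.8 CPM on d0, d15, d22 and d36 (ratio d22 over d15 of 3.19, 95% interval 2.98 to 3.42). H2-DMa and H2-DMb1 form the H2-DM complex, which exchanges peptides on class II. H2-DMa went from 47.8 to 153 CPM and H2-DMb1 from 59.7 to 177, ratios of 3.20 and 2.97. The remaining members were at low level at both days: Ciita, the class II transactivator, at 6.36 and 7.92 CPM, H2-Ob at 2.31 and 2.68, Ctss at 1.30 and 0.470, H2-DMb2 at 0.433 and 1.08, and H2-Oa with 0 UMIs at d15 and 0.145 CPM at d22. Macrophages and B cells carry class II too. Their markers summed to 13.9 and 1.73 CPM at d15 and to 20.6 and 2.17 at d22 over the same endothelial cells, beside 295 and 2286 CPM of Cd74. Cells rich in these markers had been removed beforehand, so the low sums were partly set by that filter. The part of such cells in the class II levels was not tested.

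Class II promoters carry a Y box, bound by NF-Y, as part of the module on which the Ciita complex assembles. The bases before the start of 3 measured class II genes are shown because these genes differed together, 2 with the exact letters CTGATTGG on either strand and 1 without. They are RefSeq sequence on GRCm38.p6, 200 bases ending just before the annotated start, 5′ to 3′ on the gene's strand, and capitals mark the match.
H2-Aa, chr17:34287824-34288023, minus strand: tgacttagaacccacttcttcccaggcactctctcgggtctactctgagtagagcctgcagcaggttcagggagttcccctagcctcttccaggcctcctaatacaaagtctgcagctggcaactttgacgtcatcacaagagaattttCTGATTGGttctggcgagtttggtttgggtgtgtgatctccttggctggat
H2-Eb1, chr17:34305667-34305866, plus strand: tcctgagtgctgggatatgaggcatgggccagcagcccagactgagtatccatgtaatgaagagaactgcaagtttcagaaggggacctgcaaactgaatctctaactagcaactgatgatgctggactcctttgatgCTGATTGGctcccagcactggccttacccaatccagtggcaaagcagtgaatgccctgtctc
H2-DMb1, chr17:34152991-34153190, plus strand: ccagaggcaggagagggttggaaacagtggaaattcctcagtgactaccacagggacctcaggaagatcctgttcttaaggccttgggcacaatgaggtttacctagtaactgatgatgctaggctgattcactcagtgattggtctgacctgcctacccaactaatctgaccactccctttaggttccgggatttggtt
The match began 51 bases before the start of H2-Aa and 62 before that of H2-Eb1. In the full windows, 250 bases before to 50 after the start, 3 of the 8 class II list genes with an entry held CTGATTGG (H2-Aa, H2-Eb1 and H2-Oa), against 4.70% of 27025 genes. Of the 4 measured list genes with an entry 2 held it, against 6.67% of 2817 measured genes. H2-DMa, also higher at d22, had no match. The printed H2-DMb1 bases hold gtgattgg, which differs from the searched letters only in the first, so the lack of an exact match does not show the lack of a Y box. These are matches of letters and not binding sites.

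Of 22 listed MHC class I genes 20 were measured, 6 were higher and 14 did not pass the size rule. All 20 had ratios above 1, with a median log2 ratio of 0.41. B2m, the light chain shared by all class I molecules, lay at 7592, 6148, 9680.4 and 6673 CPM on d0, d15, d22 and d36 (ratio d22 over d15 of 1.57, 95% interval 1.56 to 1.59). The nonclassical class I genes H2-Q7 and H2-T23 went from 495 to 823 CPM and from 237 to 390 CPM, and H2-T22 from 175 to 270. Psmb9, a subunit of the immunoproteasome, went from 209 to 335 CPM (ratio 1.60) and Tap1, which pumps peptides into the endoplasmic reticulum, from 121 to 186 (ratio 1.54). The classical heavy chains did not reach 1.5, with H2-K1 at 2074 and 2951 CPM and H2-D1 at 6606 and 8279. H2-Q and H2-T genes include near-identical copies, and reads could be split between them.

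Interferon response genes were mixed. Of 39 listed genes 23 were measured, 4 were higher, 0 were lower, and the median log2 ratio was 0.12. The 4 were interferon-inducible GTPases, which act against intracellular pathogens: Irgm1 at 98.1, 62.7, 124 and 107, Igtp at 112, 82.1, 155 and 155, Gbp4 at 92.1, 64.6, 113 and 96.0 and Gbp3 at 50.3, 34.5, 54.6 and 41.2 CPM at d0, d15, d22 and d36. Their ratios were 1.97, 1.89, 1.75 and 1.58. Gbp3 reached 50 CPM only at d22 of the 2 days compared. Irgm1, Igtp and Gbp4 did not follow the split in depth, as each was higher at d36 than at d0. Igtp was as high at d36 as at d22, and Gbp3 followed the split. Genes that type I interferon raises strongly did not pass the size rule. Isg15, a ubiquitin-like protein, was at 195 and 243 CPM, Ifit3 at 105 and 114, Irf7 at 57.7 and 61.3, and Ifit1 at 116 and 80.5.

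**Figure D2:**
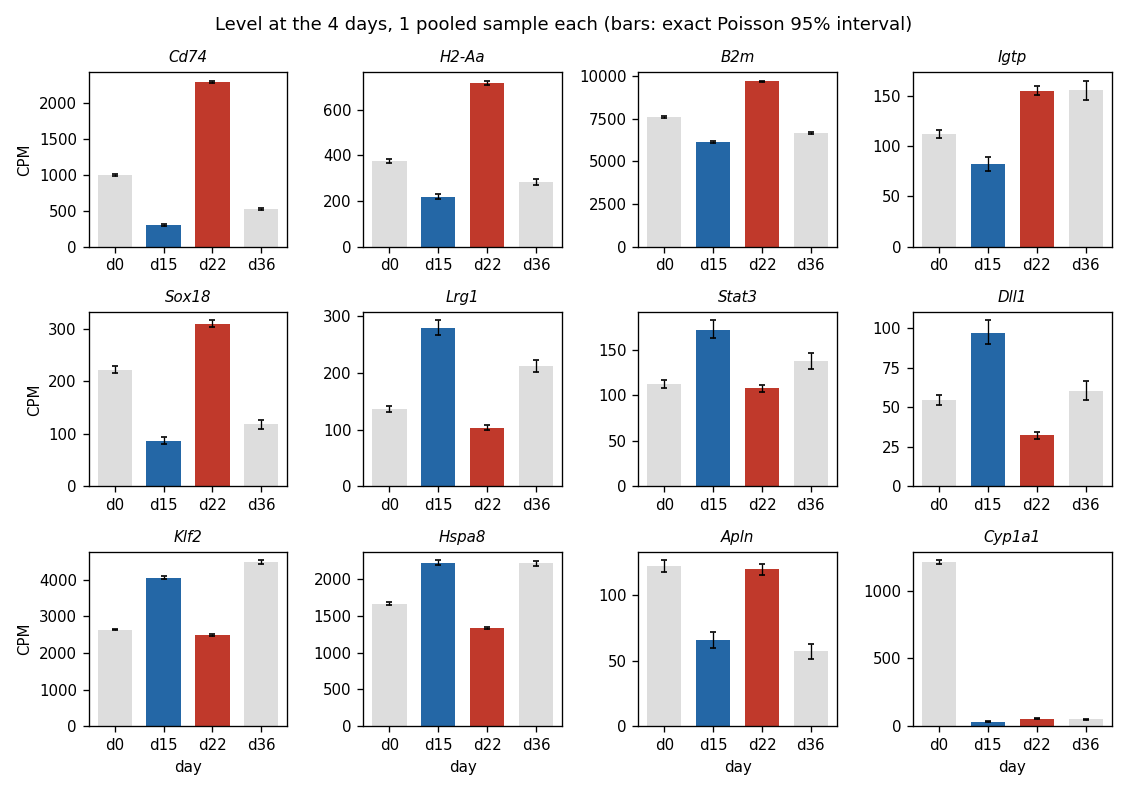
Level of 12 genes at the 4 days (y axes, CPM from 0; x axes, day; blue d15, red d22, grey the other days), each bar 1 pooled sample with its exact Poisson 95% interval. Cd74, H2-Aa and B2m peak at d22; Sox18 and Apln are high at d0 and d22, Lrg1, Stat3, Klf2 and Hspa8 are high at d15 and d36, and Cyp1a1 is at 1209 CPM at d0 and at most 57.1 later.

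In the acute-phase and Stat3 group Lrg1, Stat3 and Bcl3 were lower after resection. Of 26 listed genes 12 were measured, these 3 were lower, 0 were higher, and 10 of the 12 had ratios under 1 (median log2 ratio −0.36). Lrg1, a secreted glycoprotein that endothelial cells make under Stat3 and that alters TGF-beta signalling, lay at 136, 279, 104 and 212 CPM on d0, d15, d22 and d36. It was 2.69-fold lower, 95% interval 2.54 to 2.85, at d22 than at d15, under its wild-type level. Stat3 itself lay at 113, 172, 108 and 137 CPM on d0, d15, d22 and d36 and was 1.60-fold lower, 95% interval 1.49 to 1.71, at d22. Bcl3, an atypical I-kappa-B protein, went from 53.8 to 26.9 CPM, but it reached 50 CPM only at d15, and at matched depth its ratios were 0.614 and 0.899, neither called. Socs3, the feedback inhibitor of the pathway, was at 582 and 410 CPM (0.71), Pim1 at 125 and 87.6 and Il4ra at 168 and 130, none past the size rule. Cebpb went from 14.3 to 2.17 CPM at a level under the filter.

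Notch genes had a median log2 ratio of −0.33 over 9 measured of 19 listed, with 2 lower and 0 higher. The ligand Dll1 lay at 54.8, 97.4, 32.4 and 60.3 CPM on d0, d15, d22 and d36, 3.01-fold lower, 95% interval 2.72 to 3.33, at d22 than at d15. It reached 50 CPM only at d15 of these 2 days. Hes1, a transcription factor that Notch induces, went from 413 to 270.4 CPM (1.53-fold lower, 95% interval 1.46 to 1.59), but did not pass at matched depth (ratios 0.731 and 0.734). Jag1, another ligand, was under 50 CPM at both days and went from 34.8 to 11.3 CPM, a ratio of 0.325 that was 0.589 in the depth window. The receptors differed less, with Notch1 at 97.2 and 75.3 CPM and Notch4 at 70.1 and 60.9, and the tip-cell ligand Dll4 was at 192 and 162. Mfng, a glycosyltransferase that modifies Notch receptors, was the 1 measured member above 1, at 130.0 and 188 CPM.

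Of 24 cytosolic heat shock genes 16 were measured and 1, Hspa8, was lower (median log2 ratio −0.11). Hspa8, the constitutive Hsp70 chaperone, lay at 1664, 2219, 1339 and 2213 CPM on d0, d15, d22 and d36. It was 1.66-fold lower, 95% interval 1.63 to 1.69, at d22 than at d15, and at matched depth the ratios were 0.579 and 0.498. Stress-induced members were low at both days: Hsph1 at 21.2 and 3.76 CPM, Hspa1a at 45.7 and 31.9 and Hspa1b at 2.75 and 0.796. Dnaja1, an Hsp70 co-chaperone, was at 585 and 424 CPM. Hsp90ab1 was at 1206 and 1125 and Hspb1 at 338 and 371. The heat shock element core GAANNTTC, searched on both strands of 300-base promoter windows, was in 12 of the 19 listed genes with an entry, against 9.04% of all 27025 genes. Hspa8 had no entry, so no gene called in this list was searched. Chaperones of the endoplasmic reticulum had 0 calls among 16 measured genes, with Hsp90b1 at 406 and 559 CPM and Pdia4 at 178 and 128.

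Immediate early genes, which respond within minutes to growth factors and to handling of the tissue, did not differ together: of 19 measured genes 1 was higher and 2 were lower (median log2 ratio −0.14). Over all measured genes 1.76% were higher and 5.58% lower. Dusp6, a phosphatase that ERK signalling induces against itself, lay at 124, 238, 104 and 214 CPM on d0, d15, d22 and d36 and was 2.29-fold lower, 95% interval 2.15 to 2.43. Dusp1, a related phosphatase, went from 1346 to 885 CPM, and Atf3, a stress transcription factor, from 77.2 to 123. Among 6 measured genes that glucocorticoids induce, 3 were lower (median log2 ratio −0.40). Tsc22d3, the glucocorticoid-induced leucine zipper, lay at 170.0, 230.2, 116 and 281 CPM on d0, d15, d22 and d36, and Cdkn1a, which encodes the cell cycle inhibitor p21, at 497, 619.6, 379 and 719.5 CPM on d0, d15, d22 and d36. Their ratios d22 over d15 were 0.503 and 0.612. Both were highest at d36, and Dusp1 is the other gene called in this list. The glucocorticoid receptor gene Nr3c1 was at 112 and 113 CPM. The STAT site TTCCNGGAA, searched on both strands of the same windows, was in 1 of 24 genes of the Stat3 list with an entry (Icam1), against 1.35% of all genes.

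Klf2 was among the most abundant genes that were lower. This flow-induced transcription factor lay at 2636, 4054, 2492 and 4475 CPM on d0, d15, d22 and d36 (1.63-fold lower, 95% interval 1.60 to 1.65, at d22 than at d15). Its relative Klf4 was just under the threshold at 1025 and 684 CPM. Of 12 measured genes of the flow and Tie receptor group only Klf2 was called, with Tek at 219 and 191 CPM, Tie1 at 352 and 287 and Thbd, which encodes the anticoagulant thrombomodulin, at 657 and 580.0. Angpt2, which antagonises Tie2 signalling, was under 50 CPM, at 26.9 and 44.4.

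Endothelial transcription factors went both ways: of 16 measured genes 1 was higher and 4 were lower (median log2 ratio −0.15), against 1.76% and 5.58% of all measured genes. Sox18, a SoxF factor of vessel and lymphatic development, lay at 222, 86.7, 309 and 118 CPM on d0, d15, d22 and d36 (ratio d22 over d15 of 3.56, 95% interval 3.28 to 3.88). Foxf1, on which lung capillaries depend, lay at 861, 1539, 884 and 1599 CPM on d0, d15, d22 and d36 (1.74-fold lower, 95% interval 1.70 to 1.78). Fli1 went from 95.5 to 54.4 CPM and Lyl1 from 56.5 to 33.7. Sox18, Foxf1, Fli1 and Lyl1 all split the 4 days as depth did.

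Of 16 measured angiogenesis and tip cell genes 1 was higher and 2 were lower, against 1.76% and 5.58% of all measured genes. So few calls are not read as a result about the group. Apln, the apelin peptide made by aerocytes in the lung, lay at 122, 65.7, 119.9 and 57.2 CPM on d0, d15, d22 and d36 (ratio d22 over d15 of 1.82, 95% interval 1.65 to 2.02), and at matched depth its ratio was 1.44 in thinned cells and 1.45 in the depth window, under the threshold. Aerocyte-like cells were 12.2% of endothelial cells at d15 and 17.0% at d22, and the part of this in the Apln ratio was not tested. The guidance factor Sema3c went from 1150.0 to 758 CPM and the adhesion molecule Mcam from 171 to 110.2, with ratios of 0.956 and 0.838 in the depth window. Receptors for VEGF differed less, with Kdr at 334 and 395 CPM and Flt1 at 387 and 292. Among 15 measured BMP and TGF-beta genes 1, Ltbp4, was lower (73.3 and 48.2 CPM). The receptors Acvrl1 and Eng were at 2001 and 1887 and at 1869 and 1678 CPM, and the targets Id1 and Smad6 at 1206 and 924 and at 397 and 284.

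The few calls in each list here stand beside 1.76% higher and 5.58% lower over all measured genes. Among 10 measured coagulation genes, Plat, the tissue plasminogen activator, went from 165 to 88.6 CPM and Vwf, the von Willebrand factor, from 241 to 147. Vwf was at 0.848 in the depth window. Of 8 measured vasoactive genes Cyp1a1 was higher and 1 was lower. The lower one was Npr3, the natriuretic peptide clearance receptor, at 143, 183, 89.0 and 143 CPM on d0, d15, d22 and d36 (2.06-fold lower, 95% interval 1.92 to 2.21). Cyp1a1, the main target of the aryl hydrocarbon receptor, lay at 1209, 34.8, 57.1 and 51.1 CPM on d0, d15, d22 and d36 (ratio d22 over d15 of 1.64, 95% interval 1.43 to 1.89), so its difference between d15 and d22 was small beside that from d0. Of 11 measured genes for fatty acid handling and caveolae, Cav2, a component of caveolae, was higher (474 and 783 CPM, ratio 1.65) and Fabp4 was lower. Fabp4, a fatty acid carrier, was at 198 and 56.4 CPM, but only 56 d15 cells held a UMI of it. Without 1 cluster led by Fabp4 (16 cells at d15 and 11 at d22) its ratio was 0.679, which did not pass. Of 13 measured matrix genes 3 were lower, namely Eln (106 and 60.8 CPM), Mgp (208 and 131) and Sparcl1 (173 and 114), and 0 of 14 junction genes were called, with Jup at 408 and 301 and Ctnna1 at 237 and 280.

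In the remaining lists few or no genes were called, beside 1.76% higher and 5.58% lower over all measured genes. Of 13 measured leukocyte adhesion genes and chemokines, Ackr4, a scavenger of CCL19 and CCL21, went from 56.1 to 112 CPM and Cxcl16 from 47.7 to 71.7. Cxcl16, at a ratio of 1.504, was just past the threshold. Vcam1, to which leukocytes adhere, was at 62.9 and 77.1 CPM (ratio 1.23, but 0.734 in the depth window) and Icam1 at 397 and 403. Of 6 measured NF-kB genes, 14 of hypoxia and glycolysis, 8 of the nuclear envelope and 11 mitochondrial transcripts 0 were called. Of 9 measured p53 targets and cell cycle inhibitors, Cdkn1a, given above, was lower and Cdkn2b was higher (55.5 and 131 CPM), and its ratio of 2.36 became 1.35 in the depth window. Aerocyte-like cells, 12.2% of endothelial cells at d15 and 17.0% at d22, held 315 of its 384 UMIs at d15 and 3310 of 3619 at d22. Within them the Cdkn2b ratio was 1.77. Of 18 oxidative stress genes, Gpx3, a secreted glutathione peroxidase, was higher (21.8 and 57.7 CPM, ratio 2.64). Aerocyte-like cells held 111 of its 151 UMIs at d15 and 1310 of 1595 at d22, at a ratio of 1.99 within them. The part of the differing class shares in the ratios of Cdkn2b and Gpx3 was not tested. Of 5 measured proliferation genes, Hmgb2 was higher at 80.6 and 143 CPM. None of the 19 circadian clock genes was measured.

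**Figure D3:**
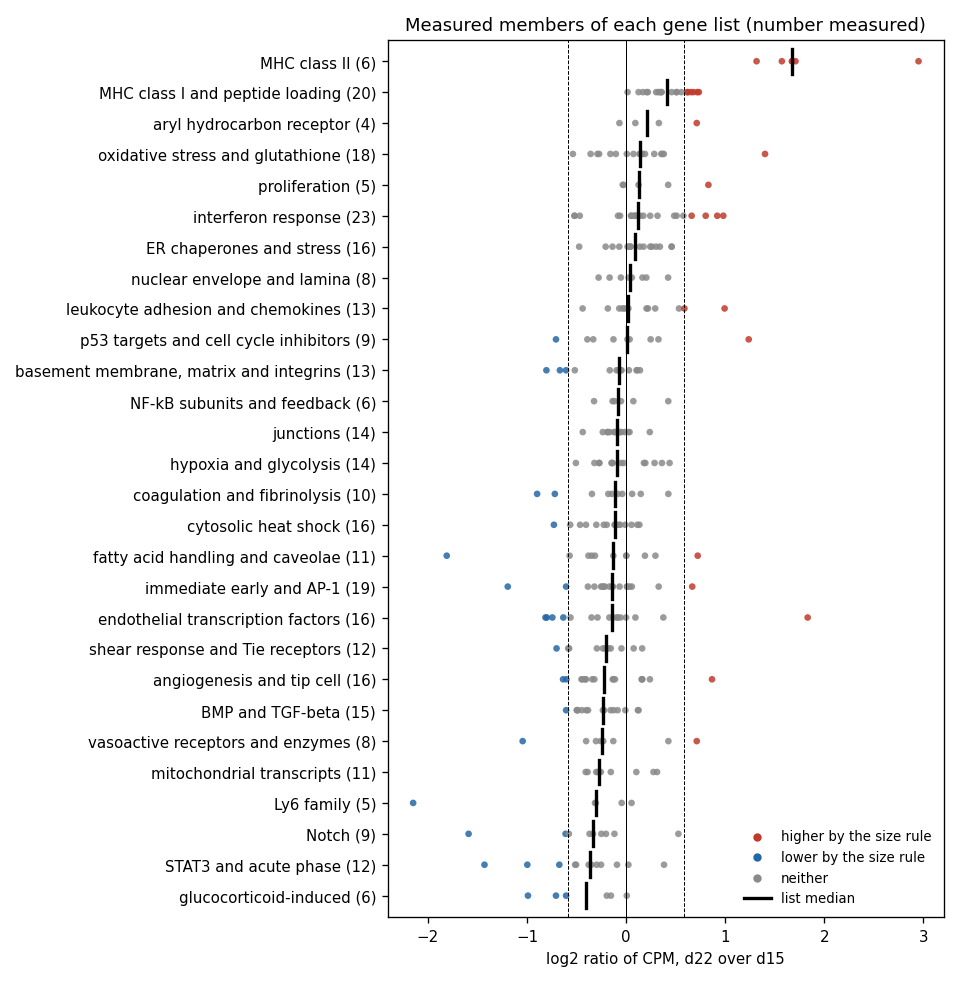
Measured members of 28 gene lists (y axis, with the number measured) by log2 ratio of CPM at d22 over d15 (x axis); each point is 1 gene, black bars are list medians, dashed lines mark a ratio of 1.5 either way, red and blue mark genes past the size rule. MHC class II stands alone with every point past the threshold, at a median of 1.68; list medians otherwise lie between −0.40 and 0.41.

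Among the 12 lowest ratios outside predicted genes and pseudogenes, those beside Fabp4, Dll1 and Lrg1 were of genes of varied function. The lowest was that of Ly6c2, a surface protein of the Ly6 family, at 18.9, 65.6, 14.8 and 59.3 CPM on d0, d15, d22 and d36 (4.44-fold lower, 95% interval 3.87 to 5.08). Its neighbour Ly6c1 is a near copy, so reads could be shared between them. Wdr12, needed for ribosome assembly, went from 99.6 to 33.8 CPM, Mto1, which modifies mitochondrial tRNA, from 98.7 to 37.1, and Kmt2d, a histone H3 lysine methyltransferase, from 65.2 to 26.0. Lrrc8a, a subunit of the volume-regulated anion channel, went from 249 to 99.9, Lgals4 from 84.7 to 33.3, and Milr1 from 62.7 to 23.6. Psme2b (119 and 48.5 CPM) and Rbm8a2 (53.8 and 15.7) are copies of Psme2 and Rbm8a and are uncertain for that reason. Each of Ly6c2, Wdr12, Mto1, Kmt2d, Lrrc8a, Lgals4, Milr1, Psme2b and Rbm8a2 lay lower at d0 and d22 than at d15 and d36. Sftpc, the surfactant protein of type II alveolar epithelium, was among the 12 highest ratios, at 38.0 and 87.7 CPM. Sftpc is itself a large part of the epithelial marker sum (103 and 189 CPM), so that sum gives no separate view of it. Over all deposited cells the Sftpc ratio was 1.06.

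At matched depth most calls kept their side of 1, but many did not pass the size rule again. Of the 65 higher genes, 45 were called again after thinning to 2500 UMIs and 34 in the depth window, 28 in both. Of the 206 lower genes, 169, 149 and 137 were. All of these genes kept their direction after thinning, and in the window 1 gene, Huwe1, which was seen after its values were known, was called the other way (ratios 0.663 and 1.83). Thinning leaves the expected share of each gene in a cell unchanged, and alters only the weights of cells and which d15 cells are kept. The kept direction was therefore nearly fixed in advance and does not address the split in depth. Thinned cells gave 89 higher (2.4%) and 229 lower genes (6.17%) of 3709 measured, and the window 177 (4.67%) and 374 (9.88%) of 3787. Cd74 had ratios of 7.65 and 6.81 in these settings, H2-Aa 3.57 and 3.06, and Sox18 4.12 and 3.44. Lrg1 was 2.37-fold and 1.82-fold lower, Dll1 2.33-fold and 2.36-fold, and Stat3 1.70-fold and 1.89-fold. Some named genes lost their call. After thinning, Gbp3 (ratio 1.46), Cxcl16 (1.37), Atf3 (1.46), Ltbp4 (0.670), Mcam (0.686), Sema3c (0.777) and Cmip (0.674) no longer passed, besides Hes1, Apln and Bcl3. In the window B2m (1.48), Igtp (1.38), Gbp4 (1.49), Cxcl16 (1.34), Cyp1a1 (1.40), Kmt2d (0.757), Eln (0.756) and Cmip (0.859) did not pass, besides those given above. Gpx3 in both settings, and Ly6c2, Rbm8a2 and Milr1 in the window, fell under the filter on levels or UMIs, with ratios of 2.23 and 1.85 for Gpx3. Other genes differed more there: Cdkn1a was at a ratio of 0.397 in the window, and Plat at 0.346. Malat1, an abundant nuclear RNA, was at 50858 and 51586 CPM over all cells but at a ratio of 1.39 in the window.

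**Figure D4:**
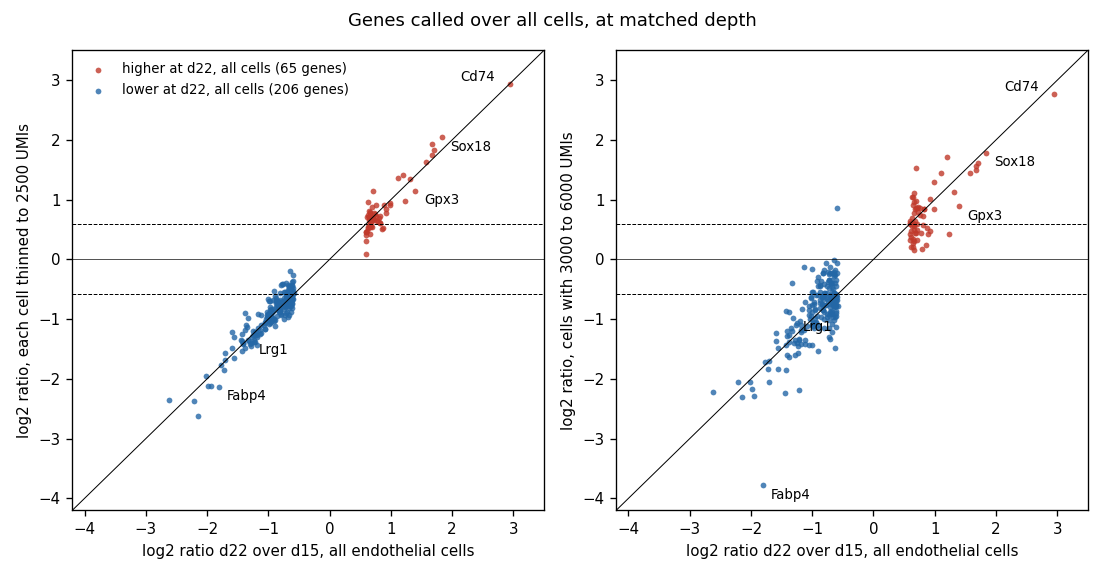
The 65 higher and 206 lower genes by log2 ratio over all endothelial cells (x axes) and at matched depth (y axes; left, each cell thinned to 2500 UMIs; right, cells with 3000 to 6000 UMIs). Dashed lines mark a ratio of 1.5; Cd74 and Sox18 stay near the line of equal ratios in both panels, and Fabp4 is farthest from it on the right, where its ratio is 0.0726.

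The direction was read within 4 named classes with at least 50 cells at both days. General capillary-like cells numbered 1077 at d15 and 2135 at d22, aerocyte-like 182 and 544, arterial-like 88 and 204 and venous-like 60 and 132. Their shares of endothelial cells went from 72.3% (95% interval 69.9 to 74.5) to 66.9% (65.2 to 68.5), from 12.2% (10.6 to 13.99) to 17.0% (15.7 to 18.4), from 5.91% to 6.39% and from 4.03% to 4.13%. The intervals are exact Clopper-Pearson and cover counting error. Proliferating cells numbered 0 of 1490 at d15, where the floor of 3 counts allows a share of up to 0.201% and the exact interval reaches 0.247%, and 19 at d22 (0.595%). Clusters within the general capillary class differed by day: clusters led by Hmcn1, Lpl and Ttc21a held most d15 cells, and clusters led by H2-DMa and Cd74, by Atf3 and by Pcp4l1 held most d22 cells. Aerocyte-like cells divided between a cluster led by Tbx2 and one led by Chst1 at d15, and were mostly in the latter at d22. These clusters also differed in depth, and depth and cell state cannot be told apart here. Over all days the median cell held 3931 UMIs in the Tbx2-led and 14645 in the Chst1-led cluster. In the general capillary class the medians were 2884.5 (Hmcn1), 5680 (Lpl) and 3234 (Ttc21a), against 7169 (H2-DMa and Cd74), 8103.5 (Atf3) and 8382 (Pcp4l1).

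General capillary-like cells had 82 higher (2.21%) and 251 lower genes (6.78%) of 3703 measured. Aerocyte-like cells had 201 (5.46%) and 332 (9.02%) of 3681, arterial-like cells 209 (10.2%) and 158 (7.72%) of 2046, and venous-like cells 140 (8.47%) and 142 (8.6%) of 1652. The smaller classes have wider counting error. Of the 65 genes higher over all cells 17 were measured in every class, and 6 of these were called in all 4, against 21 of 50 among the lower genes. These genes had been called over the same cells, most of them general capillary-like, so agreement within classes was partly fixed in advance. No such count over all genes measured in every class is given beside them. Cd74 was higher in each class, from 402 to 3458 CPM in general capillary-like cells, from 11.5 to 172 in aerocyte-like, from 88.8 to 411 in arterial-like and from 302 to 2279 in venous-like cells. The ratios were 8.61, 14.98, 4.63 and 7.54, and that of aerocytes rests on 14 UMIs at d15. Cd74 lay lower in aerocyte-like than in general capillary-like cells at either day, but the cluster led by H2-DMa and Cd74 had been placed in the latter class. Sox18 had ratios of 3.51, 3.48, 3.91 and 2.98 in the same order, B2m 1.54, 1.68, 1.58 and 1.60, and H2-Q7 1.73, 1.96, 1.93 and 1.88. H2-Ab1 was also called higher in each class (2.66, 1.81, 4.17 and 5.42). Lrrc8a was called lower in each class (0.370, 0.504, 0.276 and 0.471). Lrg1 was lower in general capillary-like, aerocyte-like and venous-like cells (0.446, 0.491 and 0.489) and was not measured in arterial-like cells. Dusp6 was lower in general capillary-like and aerocyte-like cells (0.404 and 0.525) and at 0.693 and 1.10 in arterial-like and venous-like cells. Differences between the classes were not tested.

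Some class ratios stood apart from those over all cells. In aerocyte-like cells Iigp1, an interferon-inducible GTPase, had a ratio of 8.35, against 1.42 over all cells. Plekho1 (0.247) and Kmt2d (0.257) were among the lowest there. In arterial-like cells Car4, an aerocyte marker, had a ratio of 4.47, with Efnb1, an ephrin ligand, at 0.304. In venous-like cells Phlda3 was at 0.215, Cmip at 0.320 and Ifit1 at 0.404. The smooth muscle genes Acta2 and Tagln headed the venous class but rest on few cells: 4 cells held the 458 UMIs of Acta2 at d22, 311 of them in 1 cell, and 7 cells held the 331 of Tagln.

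**Figure D5:**
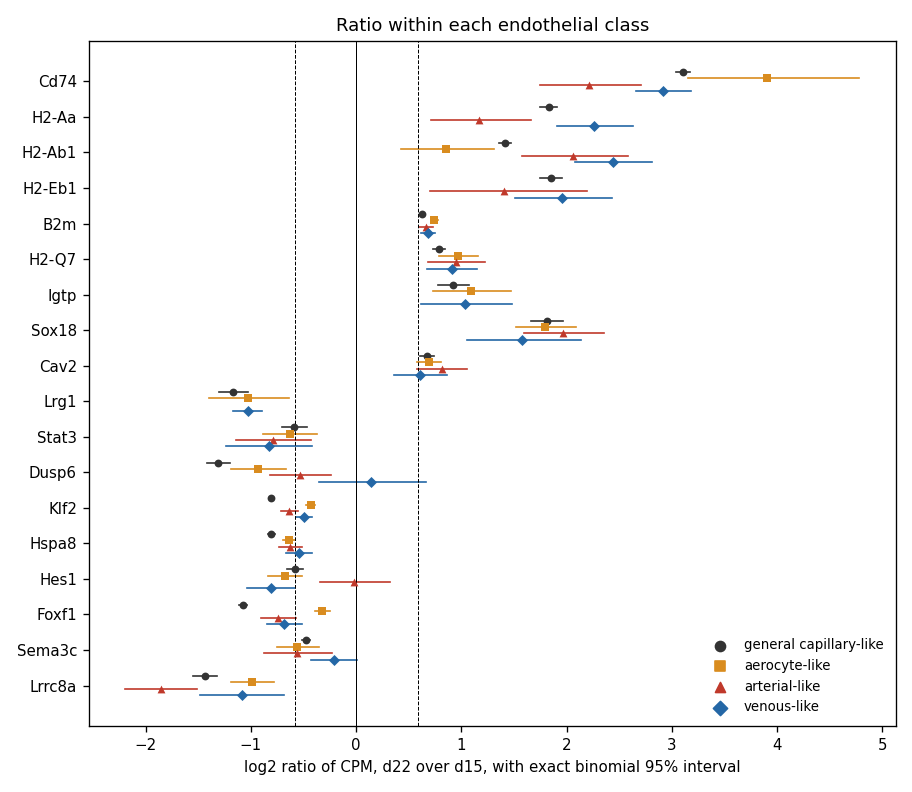
Log2 ratio of CPM at d22 over d15 (x axis) for 18 genes (y axis) within each endothelial class, with exact binomial 95% intervals; dashed lines mark a ratio of 1.5 either way, and genes not measured in a class have no point there. Cd74, H2-Ab1, B2m, H2-Q7, Sox18 and Cav2 lie right of the upper line in all 4 classes, and Lrrc8a lies left of the lower line in all 4.

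Class II genes were detected in larger shares of cells at d22, and their UMIs were unevenly spread over cells. After thinning to 2500 UMIs, Cd74 was detected in 15.9% of 1037 d15 cells (95% interval 13.7 to 18.3) and 52.5% of 3193 d22 cells (50.7 to 54.2). Without thinning the shares were 15.8% and 62.5%. Cells with a UMI held on average 5.03 Cd74 UMIs at d15 and 11.7 at d22, so both the share and the amount per positive cell were higher. Over all thinned cells the median was 0 UMIs at d15 and 1 at d22, and the 90th percentile was 2 and 21.8. The cluster led by H2-DMa and Cd74 held 20 d15 cells and 514 d22 cells. The 5% of cells with most Cd74 held 67.1% of its UMIs at d15 and 35.7% at d22. A fibroblast-led cluster of 59 cells from all days, of a cell type that should lack the gene, had a median of 5027 UMIs before thinning. Of its 50 cells deep enough to thin, 30% (17.9 to 44.6) had a Cd74 UMI. Only 5 cells of that cluster came from d15 and 20 came from d22, so it gives no background for d15 alone. Within d15, Cd74 was detected in 20.2% of 731 thinned general capillary-like cells (17.4 to 23.3) and in 5 of 143 aerocyte-like cells (1.14% to 7.97%). The classes come from clusters of these same counts, and the cluster led by H2-DMa and Cd74 was named general capillary. Gaps in Cd74 between classes could therefore be partly set by the clustering. Within d22 the shares were 62.9% in general capillary-like and 65.9% in venous-like cells. They were 28.4% (22.4 to 35.2) in arterial-like and 19.9% (16.6 to 23.5) in aerocyte-like cells, not above the 30% of the fibroblast-led cluster. H2-Aa was detected in 18.9% and 47.0% of thinned cells at d15 and d22, beside 20% in the fibroblast-led cluster. For H2-Ab1 the shares were 27.4%, 52.0% and 24%, and for Sox18 11.7%, 40.9% and 8%. Amounts per positive cell differed little for Sox18 (1.61 and 1.89 UMIs).

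Of the 36 named genes called lower, 35 were detected in a smaller share of thinned cells at d22, and for 25 of these the intervals of the shares did not overlap. The exception was Fabp4, in 2.41% and 2.57% of cells, and Eln (9.06% and 8.93%) and Mcam (18.5% and 17.0%) differed little. All 36 genes had been called for a lower level at d22 over the endothelial cells that include these. A smaller share was therefore nearly fixed in advance, and the counts of 35 and 25 are no separate evidence of a difference. No such count over all measured genes is given beside them. The intervals treat pooled cells as independent and cover counting error only. Lrg1 was detected in 14.9% (12.7 to 17.2) of thinned d15 cells and 8.21% (7.28 to 9.21) of thinned d22 cells, with 3.75 and 2.87 UMIs per positive cell, beside 2% in the fibroblast-led cluster. Ly6c2 was detected in 14.9% and 2.66% (2% in that cluster), Mto1 in 20.2% and 7.55% (8%), and Lrrc8a in 26.7% and 14.7% (18%). Fibroblasts may express Mto1 and Lrrc8a, so that cluster is no measure of background for them. Abundant genes remained present in most cells. Klf2 was detected in 95.9% and 85.8% (42% in the fibroblast-led cluster), with 10.6 and 7.06 UMIs per positive cell. Hspa8 was detected in 88.9% and 81.4% (78%), with 6.10 and 3.86.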

How the data were processed

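Single lung endothelial cells were profiled, per the labels' protocols, by droplet sequencing with version 2 of the 10x Genomics 3′ kit. The deposited table holds counts, whole UMIs per gene and cell, without scaling. Cell Ranger 2.1.1 and build mm10 are named in the submitters' processing notes, and the sources used here do not state filters applied by the authors. Cells under 300 genes or over 10% mitochondrial UMIs were removed. They were grouped with scanpy 1.11.5 (2000 variable genes, 30 principal components, 15 neighbours, Leiden resolution 1.0 with igraph 0.11.9) into 21 clusters over all 4 days and named "-like" from marker lists, and clusters led by other cell types were left out. Rules on leading genes (at least 25% of a cluster's cells), Malat1-poor clusters and cells with at least 2% of UMIs from other markers were set after seeing the clusters. Doublets were not called. UMIs were summed per day over 1490 endothelial cells at d15 (median 4172 UMIs) and 3193 at d22 (median 7667). Ratios have exact binomial intervals, levels exact Poisson intervals and shares Clopper-Pearson intervals, all at 95% and for counting error only (scipy 1.17.1). The floor for a count of 0 was 3 counts. TMM factors came from edgeR 4.0.16, used for scaling without a test. The size rule was also run on simulated counts, drawn for each gene from day totals without variation between cells, libraries or animals. That run therefore does not address such variation.

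The 29 gene lists (648 of 650 entries with a row in the table, some through older symbols among RefSeq synonyms), marker lists, rule for named genes and the comparison itself were chosen with earlier results of these data known. Named were the 12 highest and 12 lowest ratios, up to 4 called genes or else the 2 largest ratios of each list, 20 set genes, and the 3 highest and 3 lowest ratios of each class. Predicted, accession-named, mitochondrial, ribosomal and immunoglobulin genes and pseudogenes could not enter the highest or lowest ratios. Promoter sequence is from RefSeq on GRCm38.p6. The 13 alternatives changed thinning, depth windows, cell filters and weights, class weights, scaling and gene filters.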

Additional observations from a re-analysis of the deposited data

How the results depend on the processing

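Of the 271 called genes, 2 changed direction in 1 of the 13 alternatives each, namely Huwe1 in cells of 3000 to 6000 UMIs (0.663 to 1.83) and Ccl21a with equal class weights (0.498 to 1.01), and no other did. Several alternatives could hardly change a direction. The changed gene filters left every ratio as it was. TMM scaling and altered totals multiplied all ratios by the same factor, and thinning left expected shares unchanged. The count of 2 is therefore no measure of robustness. The count of higher genes, 65 over all endothelial cells, was 117 with cells thinned to 1300 UMIs, 177 in cells of 3000 to 6000 UMIs, 101 with TMM scaling, 1007 with no minimum CPM and at least 20 UMIs, and 36 at 100 CPM or more. The count of lower genes, 206, was 374 in the 3000 to 6000 window, 1569 with no minimum CPM and 112 at 100 CPM or more. The last 2 filters change the number of genes tested, and for the others the cause was not tested. In the remaining alternatives both counts stayed within 1.5 times. List medians near 0 changed sign. In the 3000 to 6000 window the log2 medians were −0.0269 for leukocyte adhesion, −0.0223 for ER chaperones, 0.0313 for the flow and Tie group, −0.234 for p53 targets, −0.185 for proliferation, −0.023 for oxidative stress and 0.555 for mitochondrial transcripts. Thinned to 2500 UMIs they were −0.0965 for p53 targets and −0.0317 for proliferation. Stricter cell filters gave −0.0457 for p53 targets and 0.0274 for mitochondrial transcripts. Medians of p53 targets were −0.0458 with equal class weights and −0.0578 with totals lacking ribosomal, mitochondrial and predicted genes. Leukocyte adhesion was at −0.00481 over all deposited cells. With no minimum CPM, NF-kB genes were at 0.103 and nuclear envelope genes at −0.103, and the latter were at −0.0171 with equal cell weights and −0.166 at 100 CPM or more. No paired analysis was possible because the cell names give the day and not the library, and leaving out libraries could not be run for the same reason. Genes under 50 CPM at both days are given as levels and were not called over all endothelial cells.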
